A study of Homo sapiens with 16 samples.

Results

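YBX3, GLUL, CAPN2 and ABTB2 are 4 of the 62710 genes counted in an RNA-seq study of CREBBP and interleukin 4 (IL4) in B-cell lymphoma lines. They were chosen from these counts, as genes near absent outside the IL4-treated control libraries or with a large loss of the IL4 response after CREBBP targeting, so that their levels in those libraries are the basis of the choice and are given as a description. All 4 symbols were found once each. YBX3 encodes a Y-box protein with a cold shock domain that binds DNA and RNA. GLUL encodes glutamine synthetase, the enzyme that makes glutamine from glutamate and ammonia. CAPN2 encodes the catalytic subunit of m-calpain, a calcium-dependent protease that works with the small subunit CAPNS1 and is inhibited by calpastatin, the product of CAST. ABTB2 encodes a protein with ankyrin repeats and BTB domains. BTB domains in many proteins bind the ubiquitin ligase scaffold CUL3.

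The study targeted CREBBP, a lysine acetyltransferase and coactivator of many transcription factors, or the AAVS integration site as the control, in the human lymphoma lines SUDHL4, OCILY7, SUDHL10 and DOHH2. Cells carried the lentiviral vector pLENTI-CRISPRv2 with Cas9 and a pool of 4 guides per target and were kept as pools, so that a pool may mix edited and unedited cells. Each pool was cultured for 4 h without IL4 (baseline) or with 10 ng/ml of IL4, the cytokine that signals through JAK kinases and STAT6. Both pools and both conditions give 4 groups (AAVS or CREBBP, baseline or IL4) of 4 libraries, 1 per line. Line 1 is SUDHL4 and line 4 is DOHH2, while the labels disagree on which of OCILY7 and SUDHL10 is line 2 and which is line 3.

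Total counts ranged from 19649735 to 61981976 per library, and the AAVS IL4 group was the shallowest (19649735 to 47716763). CREBBP itself was counted in every library, from 69.9 to 278 CPM (counts scaled to the library total) in the CREBBP pools. In the AAVS pools it was at 190.5 to 378.8 CPM, so the ranges of its transcript overlapped between the pools. The authors reported loss of CREBBP protein in the targeted pools by immunoblotting, which counts of the transcript do not measure. The 6 B-lineage markers summed to 2613 to 5137 CPM over the 16 libraries. The AAVS IL4 libraries stood apart in many genes. Of 14987 genes with a mean of at least 1 CPM, 603 (4.02%) were higher in each of these 4 libraries than in any of the other 12. YBX3, GLUL, CAPN2 and ABTB2 are among them, as their choice implies. Of the marker genes, with no limit on the mean, those higher in these 4 libraries than in all others were 6 of 8 naive and memory B-cell markers, whose sum was 558.3 to 3687 CPM against 56 to 298.1 CPM elsewhere, and 10 of 13 T-cell markers, whose sum was 125.4 to 286.6 CPM against 89.8 to 181.8 CPM. The same held for 3 of 5 plasma cell markers (sum 129.4 to 770.6 CPM against 17.8 to 62.8 CPM), 2 of 6 NK-cell markers (4.63 to 22.1 CPM against 0.534 to 2.27 CPM) and 3 of 5 erythroid markers (3.46 to 20 CPM against 0 to 0.870 CPM). One marker each of monocytes (of 9, with MARCO at 0), dendritic cells (of 6), fibroblasts (of 7) and epithelium (of 5, with KRT19 at 0) did so, and 0 of 5 endothelial, 0 of 4 platelet, 0 of 6 germinal centre and 0 of 6 B-lineage markers. Most of the T-cell sum outside the AAVS IL4 libraries came from LCK, at 68.3 to 156.1 CPM. The mean of LCK was lower in the AAVS IL4 group (74.8 CPM) than in each other group. IGHM, the immunoglobulin mu chain, had between 138.1 and 1711 CPM in the AAVS IL4 libraries and between 0 and 0.0696 CPM in the other 12. The part of these transcripts in the levels of the 4 genes was not tested.

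The sequence before each start site is shown because the 4 genes share a pattern over libraries that their promoters can be set beside. The 250 bases before the RefSeq start (GRCh38.p14) are printed from 5′ to 3′ on the strand of the gene, with CG dinucleotides in capitals.
YBX3 chr12:10723324-10723573 (minus strand): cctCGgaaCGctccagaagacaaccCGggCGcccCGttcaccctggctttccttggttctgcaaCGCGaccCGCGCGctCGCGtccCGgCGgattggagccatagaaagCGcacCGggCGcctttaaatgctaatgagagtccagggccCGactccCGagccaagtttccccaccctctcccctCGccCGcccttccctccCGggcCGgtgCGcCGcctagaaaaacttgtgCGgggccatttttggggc
GLUL, upstream start, chr1:182391791-182392040 (minus strand): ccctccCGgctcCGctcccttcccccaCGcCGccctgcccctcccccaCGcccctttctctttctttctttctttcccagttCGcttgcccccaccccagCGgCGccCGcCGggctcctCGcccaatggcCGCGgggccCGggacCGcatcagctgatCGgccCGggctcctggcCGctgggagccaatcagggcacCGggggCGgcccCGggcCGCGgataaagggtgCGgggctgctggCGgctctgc
GLUL, downstream start, chr1:182391342-182391591 (minus strand): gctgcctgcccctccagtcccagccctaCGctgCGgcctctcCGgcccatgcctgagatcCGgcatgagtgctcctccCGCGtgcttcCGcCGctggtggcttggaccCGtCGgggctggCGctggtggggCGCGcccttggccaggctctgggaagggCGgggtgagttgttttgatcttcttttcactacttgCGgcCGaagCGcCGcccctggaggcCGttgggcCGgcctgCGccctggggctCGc
CAPN2, upstream start, chr1:223701347-223701596 (plus strand): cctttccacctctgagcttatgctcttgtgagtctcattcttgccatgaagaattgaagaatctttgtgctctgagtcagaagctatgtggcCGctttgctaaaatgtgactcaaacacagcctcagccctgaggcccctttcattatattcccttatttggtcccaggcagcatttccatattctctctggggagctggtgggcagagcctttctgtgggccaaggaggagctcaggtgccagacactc
CAPN2, downstream start, chr1:223712289-223712538 (plus strand): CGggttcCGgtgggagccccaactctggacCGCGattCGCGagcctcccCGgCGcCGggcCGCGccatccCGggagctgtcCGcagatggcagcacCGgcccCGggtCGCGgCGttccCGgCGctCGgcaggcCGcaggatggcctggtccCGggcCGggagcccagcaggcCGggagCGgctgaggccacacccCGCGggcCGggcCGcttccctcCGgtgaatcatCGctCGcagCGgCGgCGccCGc
ABTB2 chr11:34358011-34358260 (minus strand): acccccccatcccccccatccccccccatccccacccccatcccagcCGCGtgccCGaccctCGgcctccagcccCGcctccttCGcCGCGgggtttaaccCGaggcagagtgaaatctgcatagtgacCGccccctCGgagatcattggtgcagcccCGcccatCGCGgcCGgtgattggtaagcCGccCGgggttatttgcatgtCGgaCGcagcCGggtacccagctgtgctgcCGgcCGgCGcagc
The windows of YBX3 and ABTB2 held 26 and 23 CG dinucleotides, and those of GLUL 25 (upstream) and 22 (downstream), against a median of 11 over 35116 promoters. At least as many were held by 19.6% (YBX3), 25.8% (ABTB2), 21.6% (GLUL upstream) and 28.0% (GLUL downstream) of promoters. For CAPN2, the upstream window held 1 and the downstream window 37, numbers that 93.9% and 4.00% of promoters reached. None of these 6 windows held TTCNNNNGAA, the palindrome with the spacing that STAT6 prefers, which 5.38% of promoters held. None held TTCNNNGAA, the spacing used by other STAT factors (6.57% of promoters), or TGACGTCA, the full cAMP response element (1.65%). Both strands are covered, since all 3 motifs are palindromes, and the STAT motifs can overlap. Which start site gave the reads is not resolved by counts per gene.

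YBX3 (ENSG00000060138, chr12:10699089-10723323, minus strand) had the widest range of the 4 genes in the AAVS IL4 libraries. Its level was 66.1, 3.01, 209 and 7.94 CPM in lines 1 to 4 of that group. At AAVS baseline it was at 0 in lines 1 to 3 and at a single count (0.0191 CPM) in line 4. The CREBBP baseline libraries had 0.403, 0.103, 0.237 and 0 CPM and the CREBBP IL4 libraries 0.0844, 0.248, 0.348 and 0 CPM, so the lowest AAVS IL4 library was above every other library. Against a floor of 3 counts per library, the AAVS library with IL4 was at least 1236-fold higher than at baseline in line 1, at least 40.9-fold in line 2 and at least 3395-fold in line 3. In line 4 the ratio was 416 with a 95% counting interval of 74.2 to 16476. With IL4, the fitted log2 fold change of the CREBBP against the AAVS pools was -7.78 (SE 1.29). Transcripts in such bulk libraries cannot tell fewer expressing cells from less RNA per cell.

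GLUL (ENSG00000135821, chr1:182378098-182392206, minus strand) was at 0 in all 4 AAVS baseline libraries, where a count of 0 allows up to 0.0535 to 0.0736 CPM. With IL4 the AAVS libraries had 16.1, 2.59, 50.2 and 4.46 CPM in lines 1 to 4, at least 300.6-, 35.2-, 816- and 77.9-fold higher. CREBBP baseline libraries had 1.08, 0.343, 1.27 and 0 CPM, and CREBBP IL4 libraries 0.886, 0.770, 0.696 and 0 CPM. AAVS IL4 and CREBBP IL4 libraries did not overlap, but in line 2 the ratio was only 3.37 (95% counting interval 2.21 to 5.25), against 18.1 (13.2 to 25.6) in line 1, 72.2 (50.2 to 107.6) in line 3 and at least 92.2 in line 4. The fitted log2 fold change was -4.59 (SE 1.18). On TMM effective library sizes the interval of the ratio in line 2 was 1.51 to 3.58. The intervals cover counting error only.

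CAPN2 (ENSG00000162909, chr1:223701593-223776018, plus strand) was also at 0 in all 4 AAVS baseline libraries. With IL4 the AAVS libraries had 17.9, 3.77, 39.5 and 11.8 CPM in lines 1 to 4, at least 335.6-, 51.3-, 641- and 205.7-fold higher. The CREBBP pools held 8 counts over 4 libraries at baseline and 13 with IL4, 12 of which were in line 1 (0.253 CPM). Lines 2 and 4 of the CREBBP pools were at 0 under both conditions. The fitted log2 fold change of the CREBBP against the AAVS pools with IL4 was -8.32 (SE 0.99), and -10.67 without line 1.

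ABTB2 (ENSG00000166016, chr11:34150987-34358010, minus strand) differed from the other 3 genes in that it was counted in every library, with at least 61 counts. AAVS baseline libraries had 2.26, 2.57, 2.09 and 2.46 CPM in lines 1 to 4, and AAVS IL4 libraries had 26.2, 21.2, 44.1 and 28.7 CPM. The ratio was 11.6, 8.24, 21.1 and 11.7, and the fitted log2 fold change was 3.56 (SE 0.27). CREBBP baseline libraries had 2.67, 2.91, 1.88 and 1.53 CPM and CREBBP IL4 libraries 2.32, 1.52, 1.99 and 2.97 CPM, with a fitted log2 fold change of 0.023 (SE 0.34) and a 95% interval from -0.73 to 0.78. The lines differed around this mean. In line 4 ABTB2 was 1.95-fold higher with IL4 (95% counting interval 1.49 to 2.55), in line 2 the ratio was 0.521 (0.368 to 0.732), and lines 1 and 3 were at 0.868 (0.659 to 1.14) and 1.06 (0.779 to 1.45). The value of line 2 depended on the scaling, since on TMM effective library sizes it was 0.749 (0.530 to 1.05), while line 4 was at 1.99 (1.53 to 2.61). The CREBBP IL4 library of line 2 had 18.1% of its counts on 7SK and 7SL RNA and a TMM factor of 0.723. With 1 library per line and condition, this spread between lines cannot be set against a spread between replicates of a line. With IL4 the log2 fold change of the CREBBP against the AAVS pools was -3.48 (SE 0.33), and the fitted difference of the IL4 responses was -3.44 (SE 0.41).

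**Figure D1:**
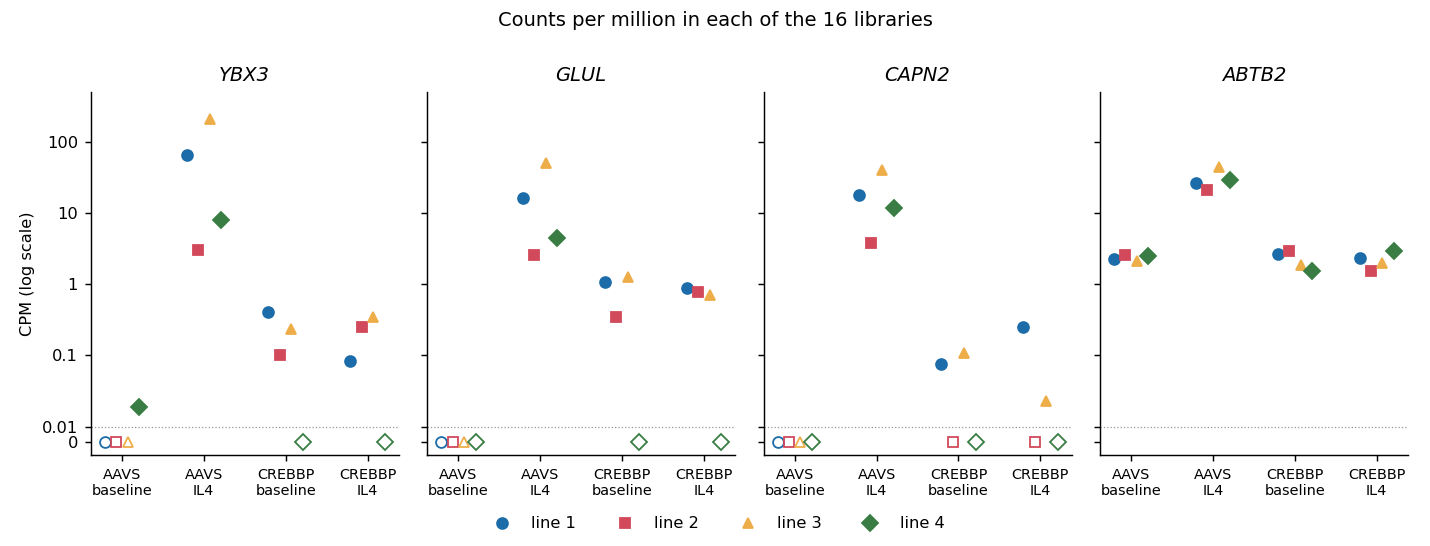
CPM of the 4 genes in each of the 16 libraries on a log scale, 1 panel per gene and 1 point per library, with libraries at 0 drawn as open symbols under the dotted line. The AAVS IL4 libraries lie above all others in each panel, at 3.01 to 209 CPM for YBX3 and 21.2 to 44.1 CPM for ABTB2, and ABTB2 alone is above 0 in all 16.

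**Figure D2:**
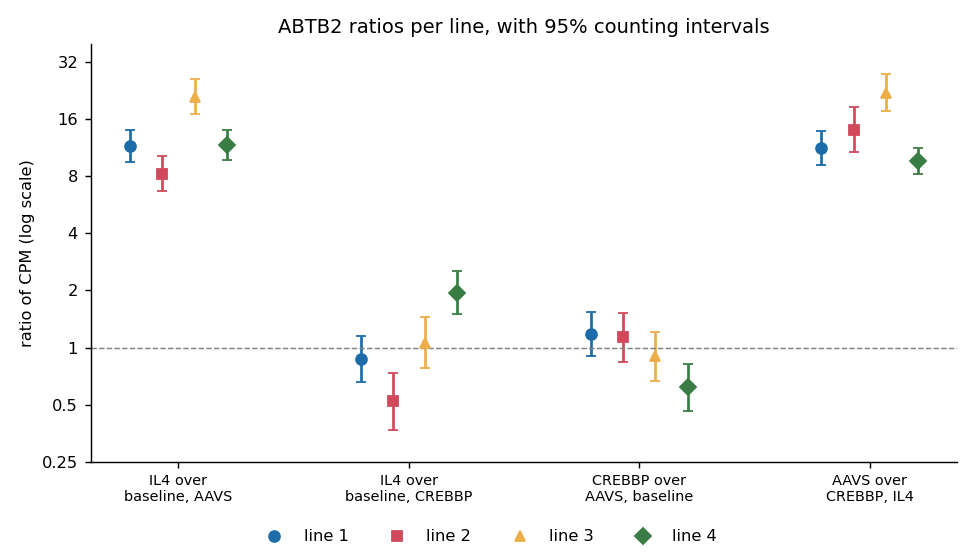
Ratios of ABTB2 CPM per line on a log scale, with 95% counting intervals as bars and the dashed line at 1. The 4 lines lie between 8.24 and 21.1 for IL4 in the AAVS pools and between 0.521 and 1.95 for IL4 in the CREBBP pools.

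On a scale per length of merged exons, the mean levels in the AAVS IL4 libraries were 8.30 ± 11.1 CPM per kb for YBX3, 6.04 ± 1.98 for ABTB2, 2.13 ± 1.78 for CAPN2 and 1.45 ± 1.75 for GLUL (SD, n = 4). The merged exons join those of all annotated transcripts, 12638 bases in 3 blocks for GLUL. A shorter transcript would give a higher value per kb. The SDs of YBX3, CAPN2 and GLUL were near or above their means. The genes share the libraries, so these SDs do not measure how steady the order is within a line. YBX3 was above CAPN2 in lines 1 and 3 and below it in lines 2 and 4. On this scale GLUL was the lowest of the 3 in every line. At AAVS baseline ABTB2 was at 0.472 ± 0.0429 CPM per kb (SD, n = 4). Reads of near-identical copies could be assigned to the wrong gene, which was not tested. The processed pseudogenes GLULP3, GLULP4, GLULP5 and GLULP6 and YBX3P1 reached at most 0.712 CPM in any library. MMADHCP2, a processed pseudogene within an ABTB2 intron on the same strand (chr11:34335118-34336003), ranged from 0.678 to 3.51 CPM in the AAVS pools treated with IL4 and reached at most 0.0764 CPM elsewhere.

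The choice of the genes did not name the difference between CREBBP and AAVS pools at baseline, but it used the libraries of both groups, as libraries in which the genes are low or from which the response to IL4 was taken. The p-values of this comparison, and of the comparison of lines given after it, are therefore not independent of the choice. Of the 18936 genes tested in it with edgeR's quasi-likelihood test, 0 (0%) had a Benjamini-Hochberg adjusted p under 0.05, 2422 (12.8%) an unadjusted p under 0.05, and 511 were called by DESeq2. ABTB2 was the only one of the 4 genes kept by the filter on low counts. Its log2 fold change was -0.0048 (SE 0.35, 95% interval -0.78 to 0.77, edgeR adjusted p = 0.997), higher in 2 of 4 lines and lower in 2, and its sign turned with the scaling (0.0028 with RLE factors). The interval leaves room for a change of up to 0.78 in either direction.

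The 3 other genes were counted at baseline in the CREBBP pools of some lines but hardly in the AAVS pools, and GLUL had the most counts. GLUL had 43, 10, 59 and 0 counts in lines 1 to 4 of the CREBBP baseline libraries against 0 in each AAVS baseline library, at least 20.3-, 4.66- and 20.7-fold in lines 1 to 3. Its mean was 0.675 ± 0.603 CPM against 0 (SD, n = 4). The exact two-sided sign-flip permutation test over the 4 lines gave p = 0.25. With 4 lines that all differ the lowest possible p is 0.125. Line 4 was at 0 in both pools, so 0.25 was the lowest p that GLUL could reach and the test cannot decide. With edgeR, GLUL was not kept by the filter in the fit of these 8 libraries and had an adjusted p of 2.59e-05 with no filter. Without line 4 it was kept by the filter, through the CREBBP baseline libraries alone, and had an edgeR adjusted p of 0.326. In the edgeR fit of all 16 libraries the adjusted p of GLUL at baseline was 0.339. YBX3 had 16, 3, 11 and 0 counts in the CREBBP baseline libraries (edgeR adjusted p = 0.475 with no filter, exact sign-flip p = 0.25). CAPN2 had 3, 0, 5 and 0 (edgeR adjusted p = 0.858 with no filter, exact sign-flip p = 0.5). For CAPN2, lines 2 and 4 were at 0 in both pools, so 0.5 was the lowest p that its sign-flip test could give. Markers that were high in the AAVS IL4 libraries were near 0 in these libraries: IGHM was at 0.0648 CPM in line 3 and at 0 in the other lines, and CD44, an adhesion receptor of many leukocytes, was at 0.0252, 0.274, 0 and 0 CPM.

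IL4 did not move these low levels in 1 direction. GLUL in the CREBBP pools went from 43 to 42 counts in line 1 (ratio of CPM 0.817, 95% counting interval 0.521 to 1.28), from 10 to 31 in line 2 (2.25, 1.07 to 5.14) and from 59 to 30 in line 3 (0.546, 0.340 to 0.862). YBX3 went from 16 to 4 counts in line 1 (0.209, 0.0509 to 0.648), from 3 to 10 in line 2 (2.42, 0.623 to 13.7) and from 11 to 15 in line 3 (1.47, 0.629 to 3.53). In line 4 both genes and CAPN2 were at 0 in both CREBBP libraries, where a count of 0 allows up to 0.0545 CPM at baseline and 0.0484 CPM with IL4.

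Lines were compared outside the AAVS IL4 group with a quasi-likelihood F-test over the 12 remaining libraries and a term for the condition. The 3 libraries of a line come from 2 pools, so that p measures only the spread between these libraries. GLUL differed between lines (edgeR adjusted p = 0.0119), as did 8982 of 21181 genes (42.4%). No difference was detected for YBX3 (adjusted p = 0.326) or ABTB2 (adjusted p = 0.883), and CAPN2 was not kept by the filter. One of the 3 genes tested was thus called, against 42.4% of all genes. The GLUL call was lost with an adjusted p of 0.189 without the CREBBP baseline libraries, 0.0708 without the CREBBP IL4 libraries and 0.101 without the term for the condition.

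**Figure D3:**
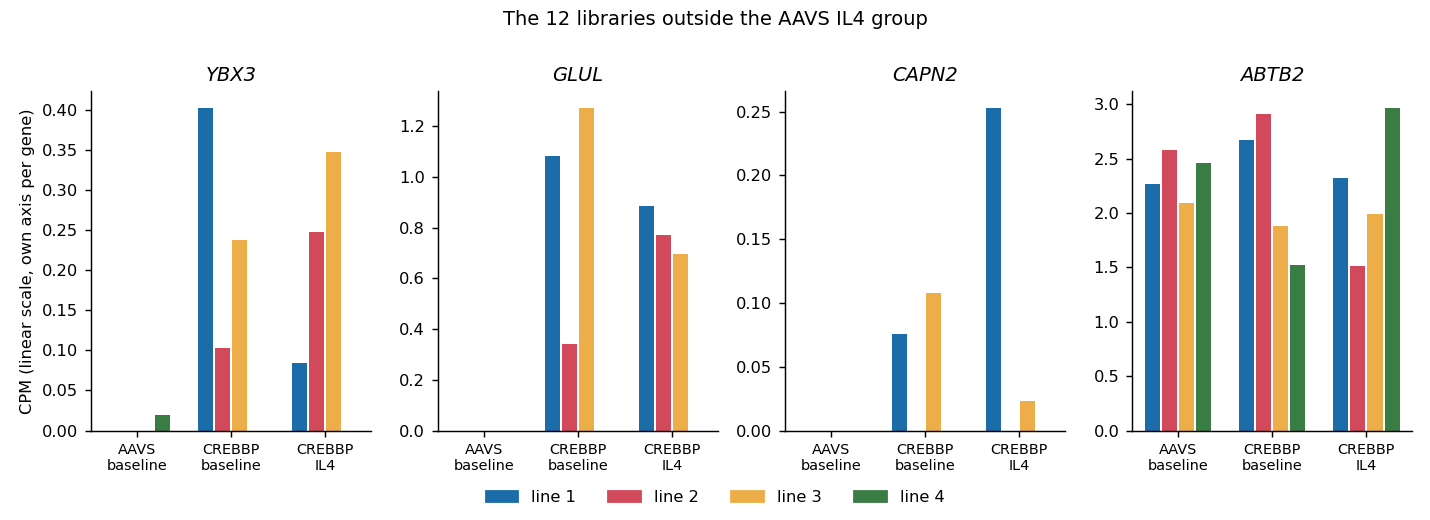
CPM of the 4 genes in the 12 libraries outside the AAVS IL4 group, with a bar per library coloured by line and a linear axis of its own for each gene. GLUL reaches 0.343 to 1.27 CPM in lines 1 to 3 of the CREBBP pools and is at 0 in line 4 and in the AAVS baseline libraries, while ABTB2 lies between 1.52 and 2.97 CPM throughout.

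Within the AAVS IL4 group the lines followed the same order for several genes. YBX3, GLUL and CAPN2 were highest in line 3, then line 1, line 4 and line 2, and ABTB2 had lines 4 and 1 exchanged. The highest library was 69.6 times the lowest for YBX3, 19.4 times for GLUL, 10.5 times for CAPN2 and 2.08 times for ABTB2. Of the 603 genes that were higher in these 4 libraries than in all others, 265 (43.9%) had the first order and 69 (11.4%) the second, against 7.93% and 6.37% of all 14987 genes. CD44 had the first order too, with 455.5, 67.5, 940.6 and 158 CPM in lines 1 to 4 against at most 0.472 CPM elsewhere. IGHM, with 950.6, 711, 1711 and 138.1 CPM, and the 13 T-cell markers, with a sum of 223.2, 153.6, 286.6 and 125.4 CPM, were also highest in line 3 and next in line 1, with lines 2 and 4 exchanged. The T-cell sum includes LCK, at 42.2 to 99.3 CPM in these libraries. Line 3 was the library with the fewest counts (19649735) and line 4 the one with the most (47716763) in this group. The part of the marker transcripts and of the depth in the order of the 4 genes was not tested.

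**Figure D4:**
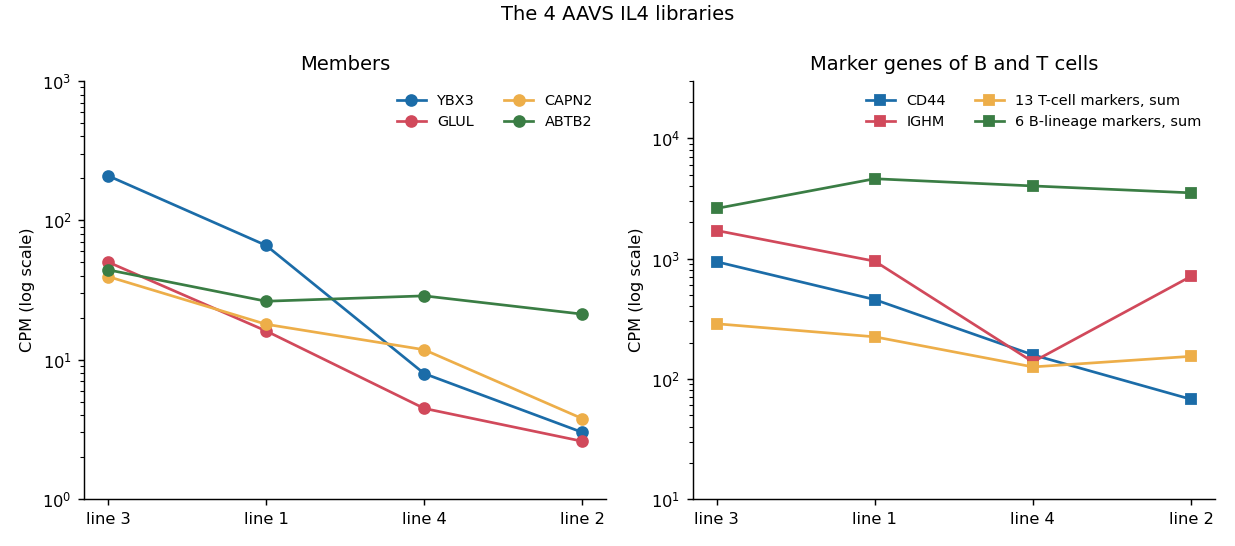
CPM on a log scale in the 4 AAVS IL4 libraries, ordered by the level of YBX3, for the 4 genes on the left and for CD44, IGHM and the sums of T-cell and B-lineage markers on the right, where lines join the values of a gene or list. YBX3 falls from 209 to 3.01 CPM and CD44 from 940.6 to 67.5 CPM in this order, while the B-lineage sum is lowest in line 3 at 2613 CPM. The T-cell sum includes LCK, at 42.2 to 99.3 CPM.

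For each gene, the 3 genes with the most similar pattern were taken as those with the highest Pearson correlation of log2(CPM + 0.5) over the 16 libraries, out of 13202 genes with a symbol and a mean of at least 1 CPM, with YBX3, GLUL, CAPN2 and ABTB2 themselves left out. They were RNF125, a ubiquitin ligase, CNKSR2, a signalling scaffold, and GZMB, a granule protease of cytotoxic lymphocytes, for YBX3 (r = 0.993, 0.992 and 0.992). They were ZNF483, ZNF354B and ITM2C for GLUL (0.962, 0.954 and 0.953), IL1R1, the interleukin 1 receptor, CPLANE1 and ZNF568 for CAPN2 (0.993, 0.992 and 0.991), and ZIK1, ZFP28 and ZSCAN18 for ABTB2 (0.991, 0.989 and 0.988). Among the 4 genes themselves, r lay between 0.867 (GLUL and ABTB2) and 0.973 (CAPN2 and ABTB2), and GLUL had a higher r with YBX3 (0.966) than with its 3 nearest other genes, but the 4 genes were chosen for this pattern. These points share the 16 libraries and the gap between the AAVS IL4 group and the rest. The number of genes over r = 0.95 was 163 for YBX3, 144 for CAPN2, 75 for ABTB2 and 4 for GLUL. In the 12 libraries outside that group, none of the 3 genes of any list was found again. There GLUL was most like DSP, the desmosome protein desmoplakin (r = 0.971, 0 to 1.81 CPM), while YBX3 reached 0.877 with the same gene, CAPN2 0.920 with IGLV4-69 and ABTB2 0.891 with RNF214.

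The relatives and partners of the 4 genes were followed in 4 lists of 66 genes in all, with the 4 genes left out. For IL4 in the AAVS pools, 0 of 58 tested list genes had an edgeR adjusted p under 0.05 (8 had an unadjusted p under 0.05 and 3 passed in DESeq2), while 488 of 20310 genes (2.40%) passed and 3257 (16%) had an unadjusted p under 0.05. The median log2 fold change was -0.11 for the lists and 0.014 for all genes. In the CREBBP pools 0 of 55 passed (1 unadjusted, 0 by DESeq2), as did 0 of 18282 genes (0%, 502 or 2.75% unadjusted, 1 by DESeq2). At baseline 0 of 56 differed between CREBBP and AAVS pools (9 unadjusted against 12.8% of all genes, 3 by DESeq2). With IL4, 2 of 57 differed with edgeR (3.51%) against 859 of 19581 genes (4.39%), with 1 higher (0.965% of all genes) and 1 lower (3.42% of all genes) and a median of 0.28 against -0.054 for all genes. At an unadjusted p under 0.05 there were 18 list genes, 13 of them higher in the CREBBP pools, against 5018 of all genes (25.6%), and DESeq2 called 15 list genes. For the difference of the IL4 responses, 0 of 58 passed (8 unadjusted, 3 by DESeq2) against 140 of 21932 genes (0.638%, and 13.3% unadjusted). Between lines, 28 of 57 differed (49.1%), against the 42.4% given above.

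Among the Y-box and cold shock proteins (7 genes, 4 tested), 0 passed in any comparison of conditions with edgeR. At most 2 per comparison had an unadjusted p under 0.05, and at most 1 passed in DESeq2. YBX1, the widely expressed Y-box protein, was at 728.5 ± 122 CPM at AAVS baseline, 664.2 ± 196 CPM with IL4, 1087 ± 122 CPM at CREBBP baseline and 1033 ± 253 CPM with IL4 (SD, n = 4). Its log2 fold change for IL4 in the AAVS pools was -0.22 (SE 0.23, edgeR adjusted p = 0.63), and for CREBBP against AAVS it was 0.69 (SE 0.19, adjusted p = 0.226) at baseline. Per kb of exon, YBX1 was at 195.6 ± 57.9 CPM in the AAVS IL4 libraries, against 8.30 ± 11.1 for YBX3. YBX2, a germ-cell Y-box protein, had at most 0.255 CPM in any library.

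Of 28 genes of glutamine and glutamate metabolism, 26 were tested with IL4 and 1 differed between the pools with edgeR. At an unadjusted p under 0.05 there were 10, of which 9 were higher in the CREBBP pools, and DESeq2 called 8. The median log2 fold change was 0.58, against -0.054 for all genes. PPAT, which uses glutamine in the first committed step of purine synthesis, was at 95.8 ± 10.8 CPM in the CREBBP IL4 libraries against 46.8 ± 26.4 CPM in the AAVS IL4 libraries (SD, n = 4). Its log2 fold change was 1.46 (SE 0.30, edgeR adjusted p = 0.0427). The call was lost without line 1, 3 or 4 (adjusted p = 0.157, 0.126 and 0.152) and without the line as a replicate block (0.137). It held in edgeR without line 2 (0.0154), with RLE factors (0.0356), no filter or 16 libraries in 1 fit, and in DESeq2. GLS2, the liver-type glutaminase, had at most 0.611 CPM in any library. GLUD1, which turns glutamate into 2-oxoglutarate, ASNS, which makes asparagine from glutamine, and SLC1A5, a glutamine carrier, had log2 fold changes of -0.24 (SE 0.22), -0.16 (SE 0.53) and -0.16 (SE 0.25) for IL4 in the AAVS pools.

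Of 13 genes of the calpain system, 12 were tested and 0 passed with edgeR in any comparison of conditions. At most 3 had an unadjusted p under 0.05 and at most 3 passed in DESeq2, both between the pools with IL4. CAPN1, the catalytic subunit of mu-calpain, was at 118.6 ± 22.6 CPM at AAVS baseline and 88.4 ± 13.9 CPM with IL4 (log2 fold change -0.48, SE 0.24, edgeR adjusted p = 0.371). The shared small subunit CAPNS1 was at 72.4 ± 13.1 and 70.3 ± 9.54 CPM. CAST, the calpain inhibitor, was at 54.1 ± 13.8 CPM at AAVS baseline and 131.9 ± 55.8 CPM with IL4 (SD, n = 4). It was higher in 4 of 4 lines but with an edgeR adjusted p of 0.0572 (log2 fold change 1.15, SE 0.22). CAST passed in DESeq2 (adjusted p = 0.00113) and in edgeR with no filter (0.0229) or 16 libraries in 1 fit (0.00489). It did not pass in edgeR with RLE factors (0.0698), no replicate block (0.123) or any line left out. CREBBP baseline libraries held 50.6 ± 15.6 CPM of it and CREBBP IL4 libraries 53.2 ± 21.6 CPM.

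Of the 18 BTB and CUL3 ligase genes, 1 was not found under its symbol in the files and 15 were tested with IL4, of which 1 differed between the pools with edgeR (3 unadjusted, 3 by DESeq2). ABTB3, a relative of ABTB2 with ankyrin repeats and a BTB domain, was the 1 gene of the 4 lists (66 genes) that was higher in each AAVS IL4 library than in the other 12. Over all 14987 genes with a mean of at least 1 CPM, 4.02% were so, but ABTB3 has a lower mean. ABTB3 is named after its values were seen. It had 0.105 to 2.44 CPM there and at most 0.0178 CPM elsewhere, and it was not kept by the filter. ABTB1, another relative of ABTB2, had 12.4, 4.71, 21.8 and 10.4 CPM in lines 1 to 4 of the AAVS IL4 group and 4.05, 0.919, 2.51 and 3.63 CPM in the CREBBP IL4 group. Its log2 fold change for CREBBP against AAVS with IL4 was -1.87 (SE 0.39, edgeR adjusted p = 0.0451), lower in 4 of 4 lines. The call was lost without line 1, 3 or 4 (adjusted p = 0.161, 0.157 and 0.115) and without the replicate block (0.104). It held in edgeR without line 2 (0.0319), with RLE factors (0.0471), no filter or 16 libraries in 1 fit, and in DESeq2. For IL4 in the AAVS pools the log2 fold change of ABTB1 was 1.80 (SE 0.41, edgeR adjusted p = 0.0896). For the difference of the responses it was -1.86 (SE 0.48, edgeR adjusted p = 0.126). DESeq2 and edgeR with no filter called both, and edgeR with RLE factors or no replicate block called neither. The scaffold CUL3 was at 135.7 ± 17.2 CPM at AAVS baseline and 145.7 ± 38.7 CPM with IL4 (log2 fold change 0.014, SE 0.18, adjusted p = 0.975), and EEF1A1, a translation elongation factor, had a log2 fold change of -0.26 (SE 0.32, adjusted p = 0.679).

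**Figure D5:**
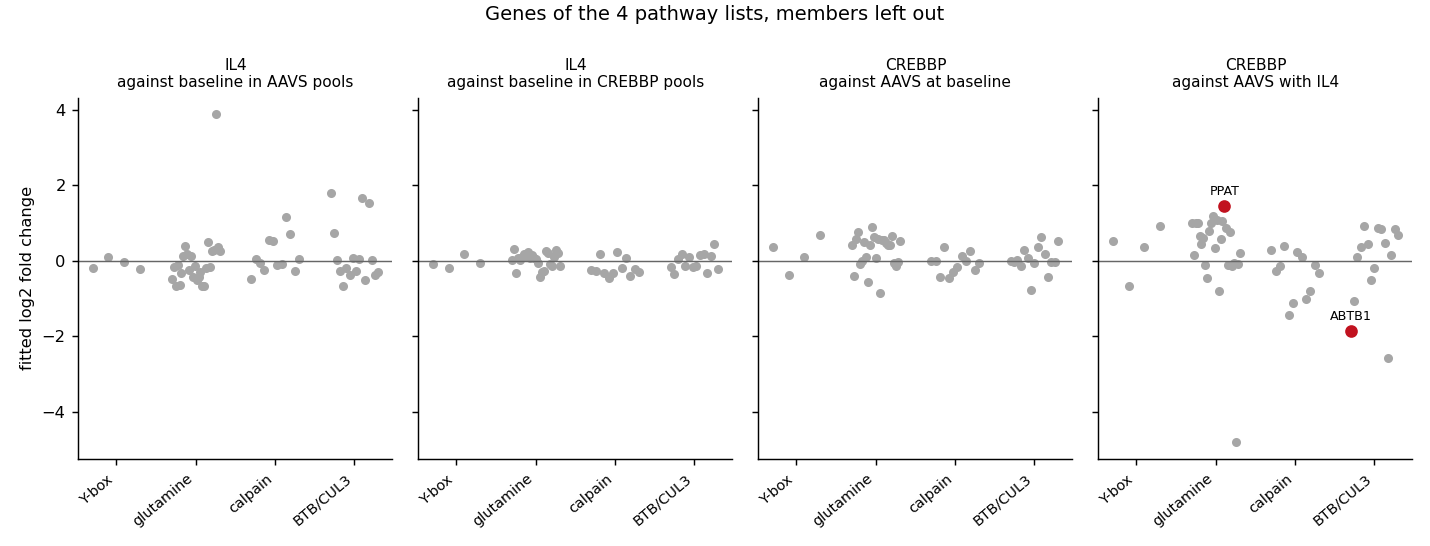
Fitted log2 fold changes of the tested genes of the 4 pathway lists in the 4 comparisons of conditions, 1 point per gene, with red for an edgeR adjusted p under 0.05. PPAT (1.46) and ABTB1 (-1.87) in the comparison of CREBBP with AAVS pools under IL4 are the only red points.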

How the data were processed

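RNA-seq libraries were prepared by the authors from ribosomal RNA depleted RNA (50 ng per the labels). Per the labels and methods, reads were trimmed with Cutadapt 2.3, checked with FastQC 0.11.8 and MultiQC 1.7, mapped to GRCh38 with STAR 2.7.8a and assigned to genes with RSEM 1.3.3. The authors deposited these estimated counts per gene as whole numbers, not normalized. The methods name a stranded kit for the primary B lymphocytes and refer the lines to the same protocol. The DESeq2 formula and the strand option of the counting are not given in the sources used here.

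CPM is the count relative to the library total. In R 4.3.3, genes kept by filterByExpr were scaled with TMM and tested with edgeR 4.0.16 (quasi-likelihood, Benjamini-Hochberg), with the line as a block. The difference of responses used 16 libraries with a term per pool. Libraries of a number come from the same line, and their deviations from the group means correlated with a median r of 0.583, 0.720, 0.301 and 0.681 in lines 1 to 4 (lowest -0.145, in line 3). No pair of libraries within a group was a copy (chi-square per gene at least 98.7 over 24 pairs). Counts of 0 were given a floor of 3 counts per library, and counting intervals are exact (95%). The fits were run on simulated counts that lacked the line differences of these data, so that run checks the code and not the calls. Alternatives were RLE factors, no filter, no block, each line left out, 16 libraries in 1 fit and DESeq2 1.42.0. Per-line ratios on TMM library sizes were added after seeing the data. With 1 library per line, p-values measure the spread between these libraries. Positions are from GENCODE 44 (GRCh38), promoters from RefSeq (GRCh38.p14).

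The 4 genes, the pathway lists (66 genes), the marker lists (85 genes) and the rule for named genes were chosen with earlier results of these data known. Named are the 4 genes, their pseudogenes, relatives and partners fixed by name, list genes with an adjusted p under 0.05 and the 3 genes most like each member. MMADHCP2, ABTB3, CD44, IGHM, LCK and DSP and the other genes named from the 12 libraries were added after their values were seen. Some genes of these lists are not reported here. No p-value is given for the 4 genes in the contrasts on which they were chosen.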

Additional observations from a re-analysis of the deposited data

Results flagged for a closer look

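Of 68 groups of 4 libraries in which the 4 genes and their partners were not all at 0, 6 had a library far from the other 3 by Dixon's criterion, and chance gives about 1 in 20. CAPN2 was at 0.253 CPM in line 1 of the CREBBP IL4 group, against 0 to 0.0232 CPM in the others. YBX3 was at 0.0191 CPM (1 count) and YBX2 at 0.134 CPM in line 4 of AAVS baseline, against 0 in the other 3 libraries. Where the others are all at 0, any count meets the criterion, so these flags carry no information on their own. YBX1 was at 906.3 CPM in line 4 of CREBBP baseline, against 1126 to 1166 CPM. CAPNS1 was at 29.99 CPM in line 2 of CREBBP IL4, against 76.7 to 79 CPM, in the library with the highest share of 7SK and 7SL RNA (18.1% of counts). SLC1A5 was at 246.2 CPM in line 2 of AAVS IL4, against 76.7 to 98.5 CPM.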

How the results depend on the processing

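The levels of the 4 genes and their described fold changes moved by less than the spread between lines under every scaling, filter and tool tried, except CAPN2 without line 1. Without each line in turn, the log2 fold change of CREBBP against AAVS with IL4 ranged from -9.19 to -7.05 for YBX3, from -5.51 to -3.81 for GLUL, from -10.67 to -7.61 for CAPN2 and from -3.64 to -3.23 for ABTB2. ABTB2 at baseline ranged from -0.097 to 0.203 and never passed. On TMM effective library sizes, the ABTB2 ratio of IL4 to baseline in line 2 of the CREBBP pools moved from 0.521 to 0.749. GLUL was called at baseline with edgeR only with no filter, a setting whose count over all genes is given below. Its difference between lines was lost with edgeR adjusted p-values of 0.101 (no term for the condition), 0.189 and 0.0708 (without the CREBBP baseline or the CREBBP IL4 libraries). Of the 3 genes most like each of the 4 genes, 0 or 1 was found again under each other pseudocount and 0 without the AAVS IL4 libraries.

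Counts of called genes depended on the settings, and the cause was not tested. With no filter, 586 genes were called at baseline, 1851 for IL4 in the AAVS pools, 40 in the CREBBP pools, 3466 between the pools with IL4 and 1191 for the difference of responses, with 1, 4, 0, 11 and 1 list genes. DESeq2 called 511, 2062, 1, 4154 and 1099, with 3, 3, 0, 15 and 3 list genes. A fit of all 16 libraries called 1270 genes for IL4 in the AAVS pools and 4393 between the pools with IL4, with 3 and 15 list genes. Without the replicate block, 540 genes and 0 list genes differed with IL4 and 2 genes for the difference of responses, and no call on the 4 genes at baseline changed. Without the CREBBP baseline libraries, 3267 genes and 8 list genes differed between lines. Without each line in turn, the counts ranged from 0 to 515 at baseline (515 without line 2), from 64 (line 1) to 1035 (line 2) for IL4 in the AAVS pools, 0 in the CREBBP pools, from 25 (line 3) to 2547 (line 2) with IL4 and from 16 (line 1) to 264 (line 2) for the difference, and list genes from 0 to 1 at baseline and for IL4 in the AAVS pools and from 0 to 14 with IL4.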
